A study of Mus musculus with 4 samples.

Results

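Eosinophils store cytotoxic proteins in their granules, and 10 genes of that equipment were followed here in the mouse middle ear after inhalation of diesel exhaust particles (DEPs). They are the eosinophil-associated ribonucleases Rnase2a, Rnase2b, Ear1, Ear2, Ear6 and Ear10, the granule proteins Epx, Prg2 and Prg3, and Il5ra, a receptor of the eosinophil growth factor IL-5. The set was chosen by the high ratio of Rnase2a in the comparison described below, and its members were found through the RefSeq accession that each probe of the array targets. Each gene had 1 probe, so that 10 of 39429 probes and 10 of 25694 genes tested were members. A probe that RefSeq did not name counted under its own accession, so the 25694 include unnamed transcripts and may count a gene more than once. The probes were A_51_P455338 for Rnase2a, A_51_P197116 for Rnase2b, A_52_P412585 for Ear1, A_55_P1952618 for Ear2, A_55_P2004375 for Ear6, A_55_P2157008 for Ear10, A_51_P386625 for Epx, A_51_P363400 for Prg2, A_51_P363729 for Prg3 and A_55_P1992592 for Il5ra. Because the same comparison chose them, their ratios and signals are given as a description, without a test.

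Total RNA of dissected middle ears was compared on 4 two-colour arrays of 1 slide, which the labels call biological replicates. On each array the source name DEP_ear goes with the red dye, Cy5, and the source name CON_ear with the green dye, Cy3. Male BALB/c mice aged 6 to 10 weeks were used, 9 in all, and the treatment was inhalation of DEPs for 1 h daily over 5 days. Tissue was collected on day 14 from the temporal bone around the middle ear, and the labels give the treatment of the controls as none. The number of mice behind an extract is not given, so the spread between arrays may be partly technical. The dyes were not swapped, so a dye preference of a transcript and an effect of exposure cannot be told apart. The treatments of both groups stand under Cy5 in the labels, so the source names decided which channel was which, and every ratio below sets the channel labelled DEP over the one labelled control. The study gives Chrm1, Epo, Esr1, Foxp3, Sos1 and Ifna1 a direction opposite to the sign that these source names give, and Cd4 the same one, while its other genes were not compared here. For these genes other than Foxp3 it also reports qRT-PCR in the directions that it describes. Were the channels exchanged, every sign below would turn.

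The ribonucleases belong to the ribonuclease A superfamily, whose members are small secreted enzymes that cleave RNA. Mice carry many near-identical copies of the eosinophil-associated ribonucleases, and macrophages express some of them too, so these genes do not mark eosinophils alone. Eosinophils mature in the bone marrow under IL-5 and enter tissues along eotaxin gradients. They hold major basic protein in the granule core, and eosinophil peroxidase and ribonucleases around it.

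Promoters of the ribonucleases are shown because most of these genes, though not Rnase2b, moved together across the arrays. Epx, Prg2 and Prg3 moved with Ear1, Ear2 and Ear6 as well, and the part of promoter sequence in the signals was not tested. RefSeq promoters on build GRCm38.p6, a C57BL/6J reference and not the BALB/c strain used, were matched for 9 of the 10 genes, all but Prg2. The window is the 250 bases before the annotated start, written 5′ to 3′ on the strand of the gene. Capitals in the first 3 sequences mark the longest run of letters that all 6 ribonucleases share, and capitals in the fourth sequence mark its GATA match. The windows are Rnase2a at chr14:51256113-51256362, minus strand, Rnase2b at chr14:51162010-51162259, plus strand, Ear1 at chr14:43819640-43819889, minus strand, and Prg3 at chr2:84987965-84988214, plus strand.
Rnase2a: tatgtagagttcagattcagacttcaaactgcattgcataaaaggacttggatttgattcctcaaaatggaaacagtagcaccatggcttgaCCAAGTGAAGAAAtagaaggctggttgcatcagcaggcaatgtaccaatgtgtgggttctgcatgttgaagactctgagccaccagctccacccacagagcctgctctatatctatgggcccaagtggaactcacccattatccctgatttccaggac
Rnase2b: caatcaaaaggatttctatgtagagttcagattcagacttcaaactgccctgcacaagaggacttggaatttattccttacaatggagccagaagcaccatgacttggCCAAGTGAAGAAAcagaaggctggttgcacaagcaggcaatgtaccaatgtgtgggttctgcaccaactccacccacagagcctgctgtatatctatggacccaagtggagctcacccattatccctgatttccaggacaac
Ear1: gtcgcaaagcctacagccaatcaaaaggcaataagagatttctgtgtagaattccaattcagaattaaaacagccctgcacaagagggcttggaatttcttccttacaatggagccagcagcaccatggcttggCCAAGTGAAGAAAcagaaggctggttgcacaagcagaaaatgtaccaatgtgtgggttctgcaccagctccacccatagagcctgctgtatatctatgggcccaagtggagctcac
Prg3: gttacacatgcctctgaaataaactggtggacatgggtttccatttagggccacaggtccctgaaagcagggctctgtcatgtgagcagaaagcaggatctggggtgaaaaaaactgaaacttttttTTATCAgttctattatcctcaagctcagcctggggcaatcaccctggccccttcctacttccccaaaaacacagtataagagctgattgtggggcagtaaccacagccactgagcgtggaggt

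All 6 ribonuclease genes lie on chromosome 14, and their promoters were similar in sequence. Over the 15 pairs, identity in local alignments of 223 to 250 columns ranged from 79.1% for Rnase2a and Ear1 to 99.2% for Ear1 and Ear2. Rnase2a and Rnase2b shared 84.4%, and Ear1 and Ear10 shared 93.5%. The run CCAAGTGAAGAAA, 13 bases long, was present in 6 of 32851 promoters of the table (0.0183%, on the strand of the gene), which are these 6 genes. It ended 145 bases before the start in Rnase2a, 129 in Rnase2b, 123 in Ear6, 105 in Ear10, 103 in Ear1 and 101 in Ear2.

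Letters of known motifs were also searched on both strands. The letters GATA with A or T before them and A or G after them, a motif of the family that includes the eosinophil lineage factor GATA1, were found in 26.5% of all promoters of this length. Among the members they were in Prg3, 123 bases before the start, and in Il5ra, 74 bases before it, and in none of the 6 ribonucleases nor in Epx. The C/EBP letters TTGCNNAA were in 9.56% of all promoters and in 5 of the 6 ribonucleases, all but Ear6. They lay 118 bases before the start in Rnase2b, 92 in Ear1, 90 in Ear2 and 94 in Ear10, after the shared run. In Rnase2a they lay at 217, before that run, and so at a different place. These promoters are similar in sequence, so the matches are not independent of each other. The PU.1 letters GAGGAAG were in 10.6% of all promoters and in 0 of the 9 members. No motif overlapped the shared run in the sequences printed above. These matches are letters in a window and no measured binding.

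Between 66.6% and 70.0% of spots were well above background in Cy5, the channel labelled DEP. In Cy3, the channel labelled control, the share was 69.1% and 67.9% on arrays 1 and 2, but 60.5% and 61.6% on arrays 3 and 4. The lowest Cy3 signal called well above background was likewise 23.3 and 20.8 on arrays 1 and 2 and 36.5 and 33.2 on arrays 3 and 4. Ratios correlated unevenly between arrays, with Pearson's r across genes, which are not independent replicates, from -0.23 between arrays 1 and 4 to 0.60 between arrays 1 and 2. Over all 25694 genes the median log2 ratio was 0.03, and limma called 0 genes at an adjusted p under 0.05, as did an ordinary least-squares fit. At an unadjusted p under 0.05, limma called 4803 genes and the ordinary fit 3997. All members were well above background in both channels of every array except Epx and Prg3, whose channel labelled control was not so on array 3, and no spot of a member was flagged or saturated.

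Rnase2a, also named Ear11, encodes a ribonuclease of the eosinophil cluster. Its processed signal in the channel labelled DEP was 29081 on array 1, 13675 on array 2, 13276 on array 3 and 8904 on array 4. In the channel labelled control it was 10111, 8329, 655 and 3818 on the same arrays. The channel labelled DEP was the brighter one on every array, but the channels overlapped across arrays, since the control signal of array 1 exceeded the DEP signal of array 4. The log2 ratios were 1.52, 0.72, 4.34 and 1.22. Their mean was 1.95 ± 1.63 (SD, n = 4 arrays), a 3.87-fold ratio that ranked 23 among the 25694 genes (25672 with the ratio turned), and it was 1.15 without array 3. On that array it was the low control signal and not the DEP signal that set the ratio apart.

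Rnase2b, also named Ear5, is its close relative, and it varied most of the 10 genes in the channel labelled DEP. There its signal was 10121, 1637, 1801 and 79.6 on arrays 1 to 4. The control signals were 165, 1020, 42.5 and 1126. The highest signal was thus 127 times the lowest in the channel labelled DEP and 26.5 times the lowest in the other channel, and the channels overlapped. The log2 ratios of 5.94, 0.68, 5.40 and -3.82 gave a mean of 2.05 ± 4.57 (SD, n = 4 arrays). The mean was 0.93 without array 3, 0.75 without array 1 and 4.01 without array 4. In linear terms Rnase2b was 61.4-fold higher in the channel labelled DEP on array 1 and 14.1-fold lower on array 4.

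Ear1, Ear2 and Ear6 encode further eosinophil-associated ribonucleases, and they shared 1 pattern. Signals of Ear1 in the channel labelled DEP were 3865, 5384, 5162 and 4993 on arrays 1 to 4, against 5477, 3253, 214 and 625 in the channel labelled control. Signals of Ear2 were 12426, 16357, 14809 and 14467, against 17232, 9916, 1060 and 2234. The control channel was the brighter one on array 1, the dimmer one on array 2 and far dimmer on arrays 3 and 4, while the channel labelled DEP stayed level. Ear6 gave 4477, 5942, 5038 and 5198 in the channel labelled DEP, against 6184, 3795, 696 and 1172 in the one labelled control. For each of these genes the control signal of array 1 was the highest of the 8 values and that of array 3 the lowest, so the groups overlapped.

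The ratios followed from this. Ear1 had log2 ratios of -0.50, 0.73, 4.59 and 3.00, with a mean of 1.95 ± 2.28 (SD, n = 4 arrays). Ear2 had -0.47, 0.72, 3.80 and 2.70, with a mean of 1.69 ± 1.92. Ear6 had -0.47, 0.65, 2.86 and 2.15, with a mean of 1.30 ± 1.49. In all 3 genes the SD exceeded the mean, and the sign on array 1 was the opposite of that on the other arrays. Without array 3 the means were 1.07, 0.98 and 0.78, in the same order.

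Ear10 is a further ribonuclease of the cluster. Its signal was 7869, 5516, 5276 and 4218 in the channel labelled DEP, against 5249, 3569, 259 and 1184 in the one labelled control. The former was the brighter channel on every array, as for Rnase2a, and the groups overlapped because the control signal of array 1 exceeded the DEP signal of array 4. The log2 ratios were 0.58, 0.63, 4.35 and 1.83, with a mean of 1.85 ± 1.76 (SD, n = 4 arrays) and of 1.02 without array 3. The sequences of the probes were not used here, so cross-hybridisation between these near-identical copies was not tested, and the values of the 6 ribonucleases may not be independent of each other.

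**Figure D1:**
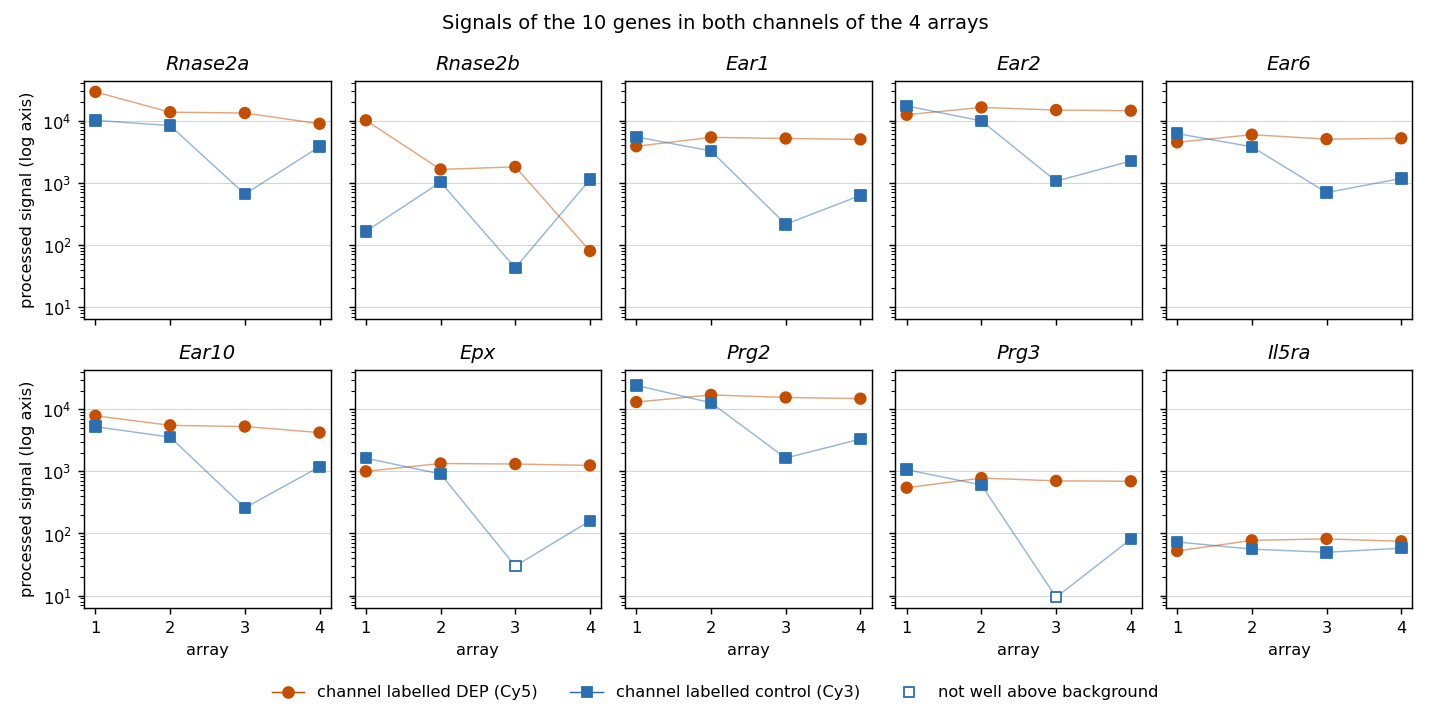
Processed signal (log axis) of each of the 10 genes in the channel labelled DEP (circles) and the channel labelled control (squares) on arrays 1 to 4, with open symbols where a signal was not well above background. Apart from Rnase2a, Rnase2b and Il5ra, the DEP signals vary less than the control signals, which are lowest on array 3, at 9.41 for Prg3.

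The granule proteins outside the ribonuclease family followed the pattern of Ear1, Ear2 and Ear6. Epx encodes eosinophil peroxidase, a heme enzyme that makes hypobromous acid. It carries the synonym EPO in RefSeq but is not erythropoietin. Its signal in the channel labelled DEP was 1001, 1341, 1313 and 1247 on arrays 1 to 4, and its control signals were 1630, 910, 29.9 and 160. The control signal of array 1 was the highest of the 8 values, and that of array 3 was not well above background. The log2 ratios were -0.70, 0.56, 5.46 and 2.96, with a mean of 2.07 ± 2.72 (SD, n = 4 arrays) and of 0.94 without array 3. With normexp correction and loess the mean of Epx was 1.37.

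Prg2 encodes major basic protein, the cationic protein of the granule core. Its signal was 13081, 17055, 15522 and 14850 in the channel labelled DEP, against 24308, 12740, 1640 and 3311 in the one labelled control. The order of the control signals over the arrays was the same as for Epx, and again array 1 held the highest of the 8 values. Prg2 had log2 ratios of -0.89, 0.42, 3.24 and 2.16, a mean of 1.23 ± 1.83 (SD, n = 4 arrays) and a mean of 0.56 without array 3 and 1.94 without array 1.

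Prg3 encodes a homologue of major basic protein, and its gene is a neighbour of Prg2 on chromosome 2. The channel labelled DEP gave 546, 781, 704 and 694, and the channel labelled control gave 1064, 606, 9.41 and 81.0, of which the value of array 3 was not well above background. The mean log2 ratio of Prg3, 2.18 ± 3.18 (SD, n = 4 arrays), was the highest of the 10 genes and ranked 9 among all genes (25686 with the ratio turned). Its values by array were -0.96, 0.37, 6.22 and 3.10. Without array 3 the mean was 0.83, a larger drop than for any other member, and on that array the size of the ratio rests on a control signal near background. With normexp correction and loess the mean of Prg3 was 1.11, the lowest of the members but Il5ra, and that of Rnase2a was the highest at 1.92.

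Il5ra encodes the alpha chain of the IL-5 receptor, which confers the response to IL-5 on eosinophils and their precursors. Its signals were low and close together, at 52.2, 77.5, 81.8 and 74.8 in the channel labelled DEP, against 72.9, 56.0, 49.8 and 57.9 in the one labelled control. The channels overlapped on a narrow range. The log2 ratios of -0.48, 0.47, 0.72 and 0.37 gave a mean of 0.27 ± 0.52 (SD, n = 4 arrays), a 1.20-fold ratio that ranked 6041 of 25694 genes and 19654 with the ratio turned. The signs by array were those of Ear1, Epx and the major basic proteins. The control signal of Il5ra was likewise highest on array 1 and lowest on array 3, without the large fall of those genes. On array 3 the lowest Cy3 signal called well above background was 36.5, so a large fall from these low signals could not have been measured. For Il5ra, 4 arrays gave the values that follow. The mean log2 ratio of Il5ra was 0.12 without array 3, 0.52 without array 1 and 0.08 with normexp correction and loess.

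**Figure D2:**
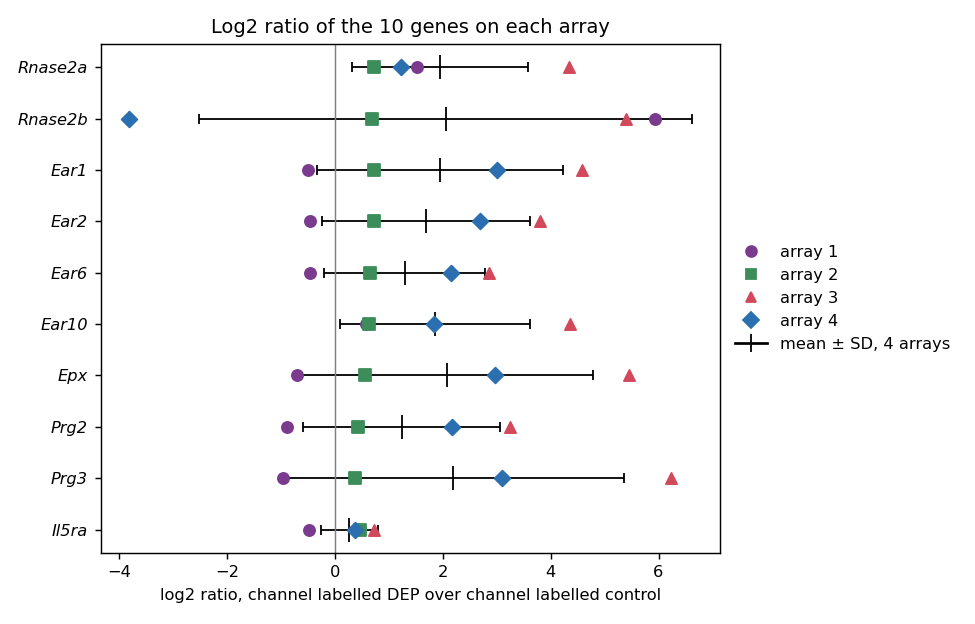
Log2 ratio of the channel labelled DEP over the one labelled control for the 10 genes, 1 symbol per array, with the mean and SD over 4 arrays as a vertical tick and a horizontal bar. Array 3 gave the highest ratio of every gene but Rnase2b, and array 1 was below 0 for 7 of the 10 genes.

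Counted over the set, the mean ratio was above 0 for 10 of 10 genes, a position held by 54.2% of all genes, while 45.8% were below 0. It was past 2-fold higher for 9 of 10 genes, all but Il5ra, against 2.38% of all genes past 2-fold higher and 4.40% past 2-fold lower. Since Rnase2a was picked by its ratio and its relatives with it, nothing is read from these shares. All 4 DEP signals exceeded all 4 control signals for 0 of 10 members, where 1.68% of all genes had channels apart in this way and 2.20% in the opposite one. The median log2 ratio of the members was -0.48, 0.64, 4.35 and 2.16 on arrays 1 to 4, and 3, 10, 10 and 9 of them were above 0. Array 1 thus had the lowest median and array 3 the highest.

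For most members the spread lay mainly in the channel labelled control. For the 7 genes other than Rnase2a, Rnase2b and Il5ra, the highest DEP signal was 1.30 to 1.87 times the lowest, while the highest control signal was 8.89 to 113 times the lowest. The upper end rests on Epx and Prg3, whose lowest control signal was not well above background, and for the other 5 genes the control range was 8.89 to 25.5 times. Rnase2b and Il5ra did not share this, with an SD of the log2 signal of 2.91 and 0.30 in the channel labelled DEP against 2.27 and 0.23. Over the 7 genes that SD was 0.16 to 0.37 for DEP signals and 1.46 to 3.10 for control signals. Signals were also taken after normexp correction, loess within arrays and quantile normalization of each spot's average intensity across arrays. That leaves the ratio on each array as loess gave it, so the channels themselves were not put on 1 distribution. The ranges of these 7 genes were then 1.24 to 2.02 times for DEP signals and 5.06 to 10.8 times for control signals. Under either scaling these genes varied more between the extracts labelled control than between those labelled DEP. The control channels of arrays 3 and 4, where most of these signals were low, were also the 2 in which fewer spots of the whole array were well above background, and the part of that in the members' signals was not tested. In such extracts of whole tissue, fewer cells of a type and less RNA per cell cannot be told apart.

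Across the 8 channel values, the 2 channels of 4 arrays, the members followed each other to different degrees. These correlations share arrays and extracts and are a description. Between the 7 genes just named, Pearson's r of the log2 signals was 0.95 to 1.00 over 21 pairs. The r was also taken without 2 values, those farthest from the median of the pair's first gene in the opening order. Pairs with a different first gene can thus leave out different channels, so these second ranges are not 1 measure. Between the 7 genes this r was 0.75 to 0.99 over the 15 pairs that leave out Ear10, and as low as -0.11 with Ear10. Rnase2a was related to the 7 genes by r of 0.87 to 0.98, and by 0.89 to 0.97 with the 2 values left out. Il5ra gave 0.56 to 0.69, and -0.18 to 0.89 with the 2 values left out. Rnase2b gave 0.34 to 0.59, and -0.21 to 0.27 with the 2 values left out. Rnase2b was therefore the member that stood farthest from the 7 genes. With Rnase2a it gave an r of 0.71 and Il5ra a lower one of 0.45. Without the 2 values at which Rnase2a was farthest from its median, these r were 0.05 and 0.78.

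**Figure D3:**
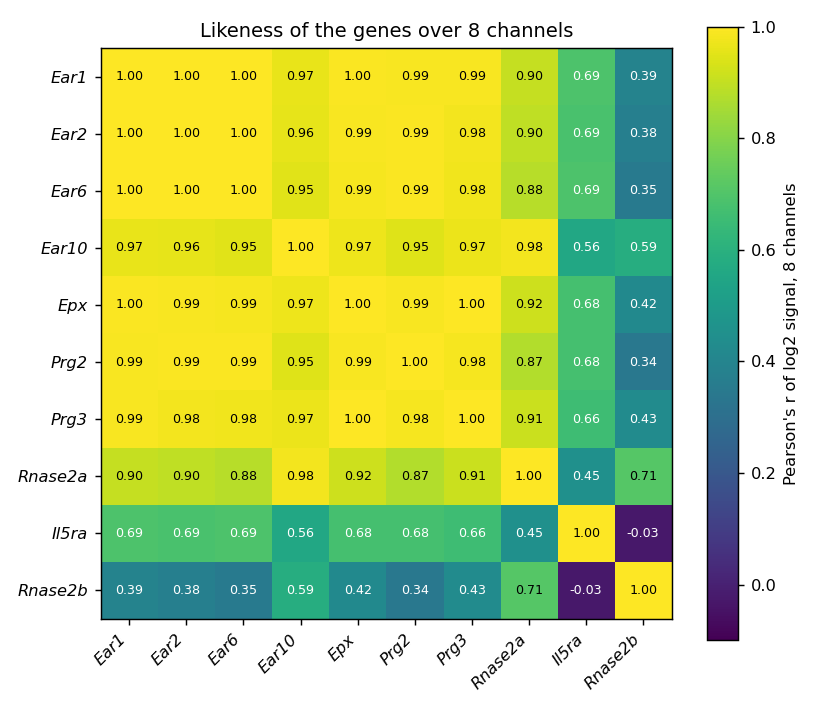
Pearson's r of log2 processed signals over 8 channels (2 channels of 4 arrays) for each pair of the 10 genes, as colour and number. The first 7 genes form a block at 0.95 or above, while Il5ra and Rnase2b stand apart, with -0.03 between them.

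Likeness to Rnase2a was ranked over 20610 genes that passed background on all arrays in 1 channel or both. The 5 with signals most like it were Obi1 (r = 0.986), Rhox4e (0.984), Ear10 (0.982), X67198 (0.979) and ENSMUST00000098479 (0.978), the last pair being transcripts that the files name only by accession. Without the 2 values at which Rnase2a was farthest from its median, these r were 0.91, 0.95, 0.97, 0.90 and 0.87. Ear10 was the only member among the 5. On signals after normexp, loess and quantile normalization of average intensity, Ear10 came first (r = 0.976). The other places went to Exosc1, Ifi30, Cmtm2a and the probe A_55_P2181162, with Obi1 at 0.956, X67198 at 0.899, ENSMUST00000098479 at 0.868 and Rhox4e at 0.813. On the processed signals Epx ranked 148, Prg3 167, Ear1 225, Ear2 276, Ear6 359 and Prg2 477 by likeness to Rnase2a, while Rnase2b ranked 3448 and Il5ra 10352. After that normalization the order changed, to Ear1 at 246, Ear2 at 261, Epx at 359, Ear6 at 421, Prg2 at 478 and Prg3 at 548, with Rnase2b at 2279 and Il5ra at 10697. The order of these members by likeness was thus not settled.

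Genes around the members were read from 8 lists by role. Of 66 genes tested in these lists, 14 were higher in the channel labelled DEP and 0 lower at an unadjusted p under 0.05, beside 10% of all genes higher and 8.66% lower, and 0 passed after adjustment. Other ribonucleases of the A family had a mean ratio above 0 for 9 of 9 genes, with a median log2 ratio of 0.45, and 4 were higher at the unadjusted level. Under normexp correction with median centring of the arrays, 5 of the 9 were above 0. With loess in its place the median was 0.10 and 1 gene was higher at the unadjusted level, as was 1 without array 1, 2 without array 4, and 0 without array 3 or without moderation of the variance. Among them Rnase4, which shares its locus with angiogenin, had 0.41 ± 0.30 (SD, n = 4 arrays; adjusted p = 0.256 in limma), above 0 on 4 of 4 arrays, and 0.77 with median centring. Rnase1, a ribonuclease that endothelium also secretes, had 0.45 ± 0.35 (adjusted p = 0.259), above 0 on 3 of 4. The ratios of Ang2 (0.74) and Rnase13 (0.53) rest on signals near background, since Rnase13 was well above it in neither channel on any array and Ang2 in 1 channel on 1 array, and both means were below 0 with median centring. Rnh1, the cytosolic inhibitor that binds ribonucleases of this family, had 0.23 ± 0.77 (adjusted p = 0.705) and 0.56 with median centring. Its log2 ratios were 1.31, -0.16, 0.23 and -0.46 on arrays 1 to 4, so array 1 set the sign of the mean. Of its list of 3 genes 0 passed the unadjusted level, against 1 with median centring.

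Ligands of the eosinophil pathway came next. Of 13 genes for growth, alarm and recruitment signals, 11 had a mean ratio above 0, and 4 were higher at the unadjusted level, Ccl11, Ccl8, Il4 and Il13. The 4 became 1 without array 2 or without moderation of the variance, and 2 without array 3, with normexp correction and loess, or with a filter on background. With median centring 8 of the 13 were above 0. Ccl11, eotaxin-1, which attracts eosinophils through CCR3, had 0.57 ± 0.31 (SD, n = 4 arrays; adjusted p = 0.186) and was above 0 on 4 of 4 arrays. Ccl24, eotaxin-2, had 0.42 ± 0.44 (adjusted p = 0.324), and the chemokine gene Ccl8 had 0.74 ± 0.49 (adjusted p = 0.199), both above 0 on 4 of 4 arrays. With loess the means of Ccl11 and Ccl24 were 0.37 and 0.21. Il5 had ratios on 3 arrays and was well above background in neither channel on any array, as was Il4, and Il13 was so in 1 channel on 1 array. No fold is given for these cytokines, whose means changed sign with median centring.

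Receptors and surface genes were measured more fully. The alpha chain Il5ra signals with the beta common chain Csf2rb, which had 0.20 ± 0.20 (SD, n = 4 arrays; adjusted p = 0.429). Its mouse-specific relative Csf2rb2 had 0.33 ± 0.17 (adjusted p = 0.246), and both were above 0 on 4 of 4 arrays. With median centring their means were 0.53 and 0.51. Of the 4 receptor chains and partners in their list 1 was higher at the unadjusted level, Csf2rb2, against 3 after normexp correction with loess or median centring, and 0 without array 3, without array 4 or with the mean of a gene's probes. Of 11 genes for eosinophil surface receptors and lipid mediators, 9 had a mean above 0 and 2 were higher at the unadjusted level, Siglecf and Adgre1. That number was 0 without array 3, without array 4 or with the mean of a gene's probes, 1 without array 2 or without moderation of the variance, 4 without array 1 and 6 with median centring. Siglecf, a lectin receptor of eosinophils and alveolar macrophages, had log2 ratios of -0.05, 0.49, 1.69 and 1.23 (mean 0.84 ± 0.77, adjusted p = 0.259), and its mean fell to 0.44 with loess and 0.48 with median centring. Ccr3, the eotaxin receptor, had -0.63, -0.12, 1.16 and 1.05 (mean 0.37 ± 0.88, adjusted p = 0.597), with a mean of 0.17 under loess. Both genes had their lowest ratio on array 1 and their highest on array 3, as most members did. Adgre1, the F4/80 receptor of macrophages and eosinophils, had 0.53 ± 0.32 (adjusted p = 0.205) and did not share that order, with 0.71 on array 1.

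Factors, peroxidases and macrophage genes followed. Of 12 lineage transcription factors 8 had a mean above 0 and 0 passed the unadjusted level, with a median log2 ratio of 0.05. With median centring 10 of the 12 were above 0, their median was 0.47 and 5 were higher at the unadjusted level, as were 2 without array 1 and 1 without array 4. Gata1, which drives eosinophil commitment, had 0.09 ± 0.47 (SD, n = 4 arrays; adjusted p = 0.827), and 0.15 and 0.55 after normexp correction with loess and with median centring. Of 4 heme peroxidases besides Epx 2 were above 0 and 0 passed, against 2 with median centring, and Mpo, the neutrophil peroxidase, had -0.07 ± 0.49 (adjusted p = 0.869), which changed to 0.61 with median centring. Of 11 genes of alternatively activated macrophages 8 were above 0 and 3 were higher at the unadjusted level, against 5 with median centring. These were the lectin genes Clec10a (0.61 ± 0.24, adjusted p = 0.154) and Cd209a (0.48 ± 0.18, adjusted p = 0.171) and the resistin-like gene Retnla (0.45 ± 0.24, adjusted p = 0.207), each above 0 on 4 of 4 arrays. Without array 3 the number of genes of the 8 lists higher at the unadjusted level was 4 in place of 14, and 6 when the variance was not moderated.

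Markers of cell types that the extracts could hold were read beside the members. Of the eosinophil markers outside the set 6 were tested, all 6 well above background on all arrays in 1 channel or both, and 1 of 6 was higher at the unadjusted level. Their median log2 ratio was -0.49, 0.46, 1.25 and 0.89 on arrays 1 to 4, which is the order of the members on a smaller scale. Their summed signal ranged from 9787 to 14119 in the channel labelled DEP, while the control sums were 14575, 10233, 5557 and 8389 on arrays 1 to 4. These sums rest almost wholly on Cebpe and Gata1, which neutrophil and erythroid precursors also express, with 2547 and 2745 of the 5557 in the control channel of array 3. That channel held the lowest control signal of Siglecf, Ccr3, Cebpe and Gata1, while Hrh4 had its lowest on array 4 (53.8). The control signals of Alox15 on arrays 3 and 4, 12.4 and 11.1, lie below the lowest called well above background there and have no order.

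Other leukocyte lists moved in part with the members. The mean ratio was above 0 for 9 of 15 neutrophil and precursor markers, 5 of 7 B cell markers and 4 of 8 erythroid markers, and for 15, 7 and 8 of them with median centring. Median log2 ratios of the neutrophil list were -0.68, 0.01, 0.75 and 0.39 on arrays 1 to 4, and their summed control signal was 807924, 480777, 285347 and 409043, against 369536 to 536623 in the channel labelled DEP. Medians of the B cell list were -0.64, 0.20, 0.74 and 0.59, and those of the erythroid list were -0.78, 0.32, 0.51 and 0.23. In each of these lists array 1 was lowest and array 3 highest, and 0 genes passed the unadjusted level. The summed control signal ranged from 9976 to 22761 for B cells and from 164920 to 447414 for erythroid cells, and all their markers were well above background on every array in at least 1 of the channels. The part of these cell types in the ratios of the members was not tested.

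The 12 macrophage and monocyte markers had medians of -0.21, 0.06, 0.44 and 0.60 on arrays 1 to 4, lowest on array 1 as for the members but highest on array 4. Of these 12 markers 2 were higher, Adgre1 and Marco, and 1 was lower, Lyz2, at the unadjusted level. Marco, a scavenger receptor, had 0.75 ± 0.20 (SD, n = 4 arrays; adjusted p = 0.112), with the channel labelled control well above background on 1 array, and 0.16 and 0.03 after normexp correction with loess and with median centring. Lyz2, lysozyme, had -0.66 ± 0.48 (adjusted p = 0.220) and was below 0 on 4 of 4 arrays, but 0.03 with median centring. The 7 markers of alveolar-type macrophages had medians of 0.49, 0.70, 0.33 and 0.24, with Mcoln3 at 0.50 ± 0.17 (adjusted p = 0.162) as the 1 gene higher at the unadjusted level, which fell to 0.16 and 0.08 after the same 2 corrections. Their summed signal in the channel labelled DEP was 306446, 177222, 148366 and 88648 on arrays 1 to 4, and in the channel labelled control it ranged from 112156 to 143939. The order of the DEP sums rests on Krt79, a keratin gene picked out after its values were seen, with 239990, 76014, 58426 and 10235. Without it the other 6 markers summed to 66456, 101209, 89941 and 78413 there, against 127437, 69394, 109576 and 51792 in the channel labelled control, so that the DEP sum was the higher one on arrays 2 and 4 and the lower one on arrays 1 and 3. The part of these cells in the signals of the members was not tested.

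Of 9 mast cell and basophil markers 7 had a mean above 0 and 1 was higher at the unadjusted level, Mcpt4, a mast cell protease (0.50 ± 0.39, adjusted p = 0.252; 0.78 with median centring). Their medians by array were -0.46, 0.16, 0.26 and 0.57. T cell markers, 5 in all, had a median of 0.05 with 0 genes past the unadjusted level. Markers of other tissues of the ear were read in the same way, and 0 of them passed after adjustment. All 7 neuron markers had a mean below 0, with medians of -2.42, -1.83, -0.54 and 0.36 on arrays 1 to 4, and 3 were lower at the unadjusted level, Syt1, Stmn2 and Snap25, of which Syt1 had -2.69 ± 1.62 (SD, n = 4 arrays; adjusted p = 0.164). With median centring Syt1 had -2.14, Stmn2 -0.98 and Snap25 -0.16, the last in place of -0.67. Bone markers (6 genes) had medians of -0.36, 0.22, 0.41 and 0.68, with Dmp1 of osteocytes higher at the unadjusted level (0.61 ± 0.51, adjusted p = 0.251; 0.92 with median centring). Skeletal muscle markers (6 genes) had -0.82, -0.54, 0.75 and 0.76. Of 7 markers of airway-type epithelium 1 was lower, the mucin gene Muc5b (-1.41 ± 0.85, adjusted p = 0.167; -0.81 with median centring). Markers of bone, muscle, neurons and airway-type epithelium were all well above background in 1 channel or both, so the extracts labelled as ear held these tissues together. The part of these tissues in the ratios of the members was not tested.

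**Figure D4:**
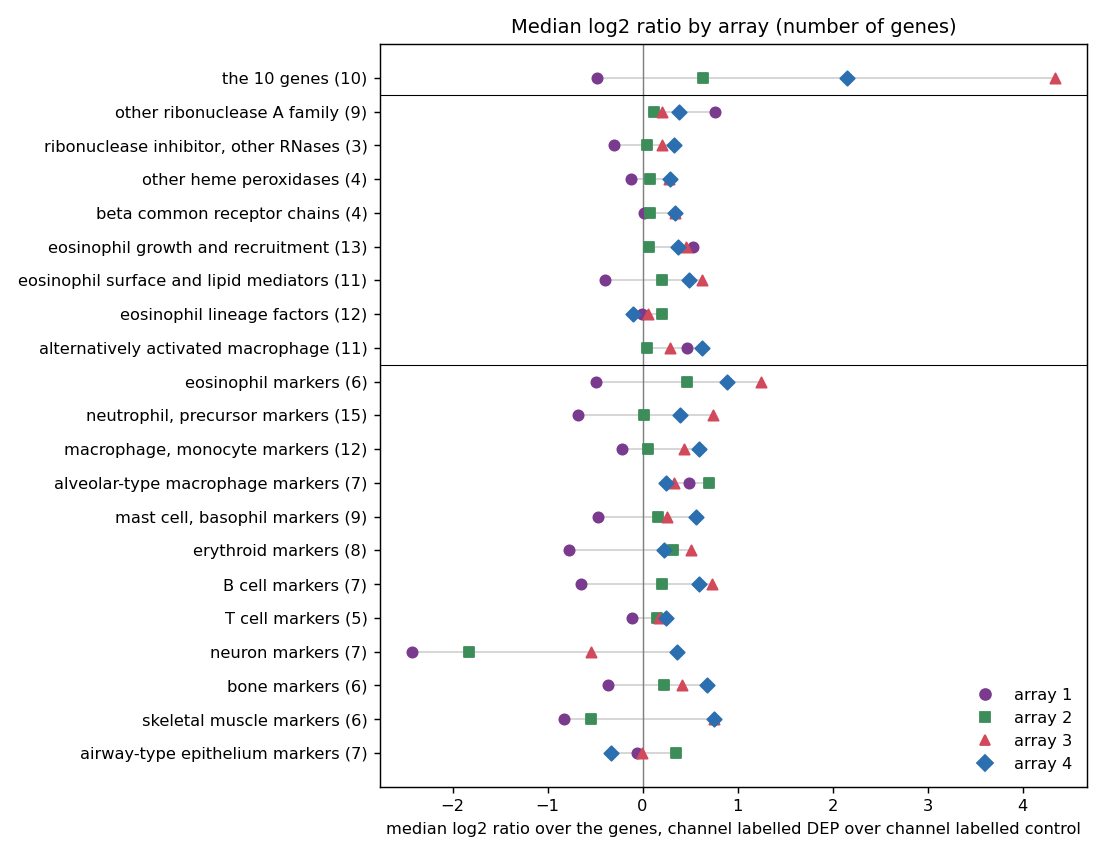
Median log2 ratio on each array over the 10 genes, over 8 lists of related genes and over 12 marker lists, with the number of genes in brackets. The members span from -0.48 on array 1 to 4.35 on array 3, and eosinophil, neutrophil, B cell and erythroid markers take the same 2 arrays as their extremes on a narrower span.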

How the data were processed

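The authors hybridised labelled RNA to Agilent 4x44K mouse arrays and quantified spots with Agilent Feature Extraction 10.10.1.1, per the labels and the file headers. The deposited processed intensity is background-subtracted and dye-normalized within each array. The deposited log10 ratio sets Cy5 over Cy3 and is 0 where no ratio was given.

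Ratios were turned to log2. Control spots, outlier spots (164 to 274 per array) and spots lacking a ratio (6179 to 8558 of 43020) were dropped, and spots of a probe were averaged. Accessions named 27655 of 39429 probes through RefSeq (assembly GRCm38.p6, names only). The brightest probe stood for its gene. In limma 3.58.1 (R 4.3.3), lmFit and eBayes with an intercept (prior degrees of freedom 1.98) tested probes with ratios on at least 3 arrays, two-sided, with Benjamini-Hochberg adjustment over 31577 probes. The fit was tested on simulated ratios. An exact sign-flip test of 4 ratios cannot give a p under 0.125, and the number of arrays limits the precision. Spot signals used for normexp (offset 50) were medians, since the files hold no mean signals.

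Named are the 10 members, the 5 genes most like Rnase2a by Pearson's r on either scaling, up to 4 genes per list with an unadjusted p under 0.05, and Siglecf, Ccr3, Il5, Ccl11, Ccl24, Gata1, Csf2rb, Rnh1 and Mpo. Outside this rule, Cebpe, Hrh4, Alox15 and Krt79 are named where sums or signals of their marker lists are described, and genes of the study for their direction. Members and lists were chosen with earlier results of these data known, and 22 of 176 list entries gave no test, among them Ear5, a synonym of the member Rnase2b. The alternatives were normexp with loess or median centring, the deposited ratio table, filters on dim probes, keeping dropped spots and the mean of a gene's probes. Others were other variance models, signals with quantile-normalized average intensity after normexp and loess, and leaving out each array. Promoters were aligned with Biopython 1.88. Tables were made with pandas 2.3.3 and numpy 2.4.6 under Python 3.11.15, and figures with matplotlib 3.10.9.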

Additional observations from a re-analysis of the deposited data

How the results depend on the processing

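The mean ratio of every member kept its sign, above 0, in 118 of 118 values over the alternatives. Requiring both channels well above background on all arrays removed Epx and Prg3, whose control signal on array 3 was near background and limits the size of their ratios. With normexp and loess the mean log2 ratio of Epx was 1.37 and that of Prg3 1.11, in place of 2.07 and 2.18. Without replicate 3 the means of the members ranged from 0.12 for Il5ra to 1.15 for Rnase2a. Pearson's r of Il5ra with Rnase2a was 0.453 as reported and -0.011 on signals with quantile-normalized average intensity, the cause of which was not tested.

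Of the 8 lists, 14 genes were higher at an unadjusted p under 0.05, against 28 with normexp and median centring and 6 without moderation of the variance. With 1 replicate left out the number ranged from 4 (without replicate 3) to 14, with 8 without replicate 2 and 9 without replicate 4. None was lower as reported, 1 was with normexp and loess and 1 with normexp and median centring, and 0 to 1 with 1 replicate left out. Over all genes, 2577 higher became 7573 with normexp and median centring and 1525 with both channels required, and 1416 to 2792 with 1 replicate left out. The 2226 lower became 1338 with 1 channel required and 1312 with both, and 1431 to 2514 with 1 replicate left out. The cause was not tested, except that the filters test fewer genes and leaving out an array uses fewer samples. Normexp correction and median centring together moved the median of all genes from 0.03 to 0.11. The fit of within-array ratios already pairs the channels of an array, and no further pairing was tried.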
